A study of Mus musculus with 12 samples.

Results

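The genes of iron handling described here carry iron into an erythroid cell, on into its mitochondria, into storage or out again, and were followed over 12 microarrays of the mouse pro-erythroblast line I/11. The genes were Tfrc, Tfr2, Steap3, Slc11a2, Slc25a37, Slc25a38, Abcb10, Fth1, Slc40a1 and Flvcr1. They were taken as a list by function, chosen with earlier results of these data known. Each was measured by every probe set (a group of short array probes for one transcript) annotated to that gene alone. This gave 26 probe sets for 10 of the 12673 genes tested. The signal is given on the log2 scale throughout, so a difference of 1 is a doubling, and each gene is represented by its brightest probe set unless another is named.

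I/11 cells are immortal erythroid progenitors derived from mouse fetal liver that lacks p53. All 3 lines compared were stable derivatives of this parent, made with a pLKO lentiviral vector that carries puromycin resistance. The sh14 line and the sh133 line each carried a different short hairpin RNA against Plcg1, which encodes phospholipase C gamma 1, and the scr line carried a scrambled hairpin. The labels do not say whether a line was a clone or a pool. Expanding cells of every line were kept in serum-free medium with 1 U/ml erythropoietin, 100 ng/ml stem cell factor and 1 µM dexamethasone. Each line had 1 array at 1, 6, 12 and 22 h, and the labels do not state from what event the hours were counted or whether the 4 arrays of a line came from separate cultures.

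A developing red cell takes up more iron than almost any other cell, because each hemoglobin chain holds a heme. Transferrin delivers the iron to its receptor at the surface, the complex is taken into endosomes, and there the iron is reduced and pumped into the cytosol. Carriers in the inner mitochondrial membrane bring it to the enzymes that make heme and iron-sulfur clusters, ferritin stores what is not used, and separate exporters release iron or heme from the cell.

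Plcg1 itself measured 4.16, 3.86, 4.27 and 4.30 in sh14 cells at 1, 6, 12 and 22 h, 4.53, 4.35, 4.37 and 4.39 in sh133 cells, and 4.74, 4.45, 4.61 and 4.31 in scr cells. The mean of the hairpin lines minus scr was -0.24 ± 0.17 (SE), with an adjusted p of 0.592 by limma, so these arrays did not show the knockdown beyond the spread between arrays. The arrays carry 2 date strings in their labels, treated here as 2 array runs, and what the dates record is not stated. All sh14 arrays and the sh133 arrays of 6 and 12 h belong to run 1. Run 2 consists of the scr arrays together with the sh133 arrays of 1 and 22 h. No sh14 array shares a run with an scr array, so sh14 minus scr rests on a run term estimated through sh133. Fitted differences between lines can therefore depart from the gaps between the array values listed. That term passed the threshold for 0 of the 12673 genes (0%) by limma, and 694 genes (5.48%) had an unadjusted p under 0.05. Array medians lay between 1.84 and 1.92. Of 9 erythroid marker genes 7 were measured, 6 of which lay above the highest array median on every array. The mean of the measured erythroid markers ran from 6.40 to 7.26 in sh14 cells, 6.76 to 7.54 in sh133 cells and 6.80 to 7.44 in scr cells.

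The largest movement among the 10 genes was over time, in the mitochondrial group. Slc25a37 (mitoferrin 1, the iron carrier of the inner mitochondrial membrane in erythroid cells), Abcb10 (an inner membrane transporter known to bind and stabilise mitoferrin 1) and Slc25a38 (a mitochondrial glycine carrier that supplies the first step of heme synthesis) all rose by 22 h. The receptor gene Tfrc, the endosomal iron pump gene Slc11a2 and the ferritin heavy chain gene Fth1 rose as well. By contrast, the exporter genes Slc40a1 and Flvcr1 were highest at 6 or 12 h in every line on their brightest probe sets. Between lines, Slc25a37 was lower in sh14 cells than in scr cells, and Tfr2 was lower in sh133 cells than in scr cells.

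**Figure D1:**
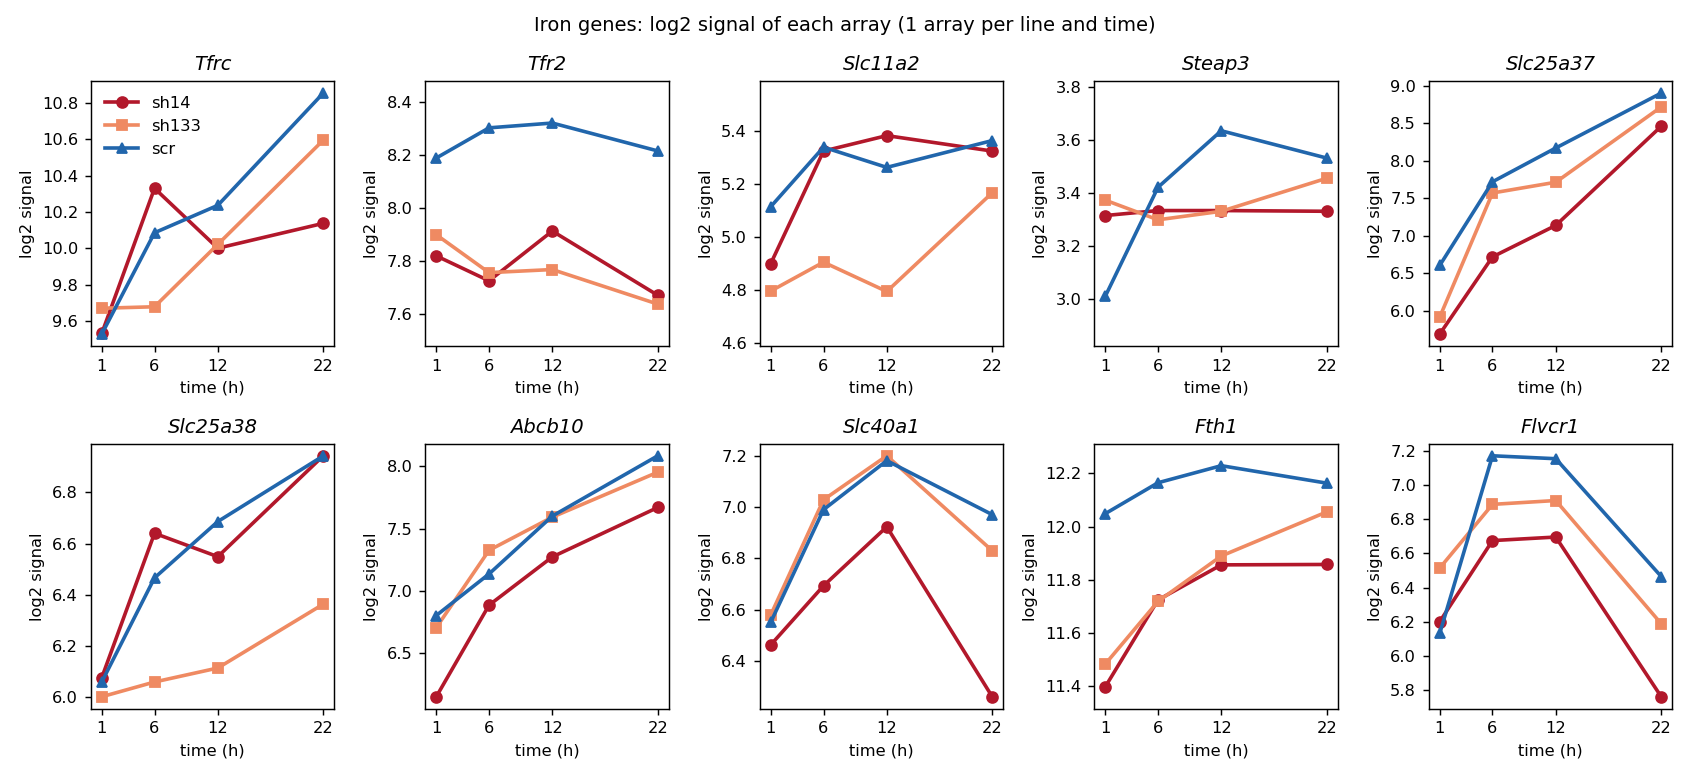
Log2 signal of the brightest probe set of each of the 10 iron genes (y axis, own scale in each panel) against time in h (x axis) in the sh14, sh133 and scr lines, with 1 array per point and so no error bars. Slc25a37, Slc25a38 and Abcb10 are highest at 22 h in all 3 lines, Slc40a1 and Flvcr1 are highest at 6 or 12 h, and every sh14 and sh133 point of Tfr2 lies below every scr point.

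The test behind these statements was limma on all 12 arrays with terms for line, time and array run, which leaves 5 residual degrees of freedom. P-values were adjusted by the Benjamini-Hochberg method over the 12673 genes, and an adjusted p under 0.05 is called here. As no line and time had a second array, the p-values measure only the scatter left around these additive terms, which may be technical. In RNA from a whole culture, fewer cells of a type and less RNA per cell cannot be told apart.

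To show the sequence around these genes, 250 bases before the annotated start are given for Tfr2 and Fth1, whose signal in both hairpin lines lay below that of scr at every time, and for Abcb10, whose signal climbed with time in every line. The sequences are from RefSeq on GRCm38.p6, which held windows for 7 of the 10 genes. Slc11a2, Slc25a37 and Slc40a1 were not among these. Capitals mark matches on either strand to a GATA motif (the letters GATA after A or T and before A or G) or to CCNCNCCC, a CACC-box form bound by Kruppel-like factors. Each sequence runs 5′ to 3′ along the gene's own strand. Tfr2 has 3 annotated starts and Fth1 has 2, and the start whose window held the most of the motif kinds searched is shown.
Tfr2, chr5:137570725-137570974, plus strand: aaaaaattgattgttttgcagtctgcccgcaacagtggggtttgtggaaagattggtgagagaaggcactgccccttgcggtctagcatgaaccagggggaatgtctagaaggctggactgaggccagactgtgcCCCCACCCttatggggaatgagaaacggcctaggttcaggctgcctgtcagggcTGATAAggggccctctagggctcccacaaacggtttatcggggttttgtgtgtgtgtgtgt
Fth1, chr19:9982396-9982645, plus strand: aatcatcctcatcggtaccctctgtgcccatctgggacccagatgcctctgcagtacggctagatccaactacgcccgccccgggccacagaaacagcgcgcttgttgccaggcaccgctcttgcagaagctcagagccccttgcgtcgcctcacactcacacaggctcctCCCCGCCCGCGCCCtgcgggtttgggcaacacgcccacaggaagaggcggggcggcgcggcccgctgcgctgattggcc
Abcb10, chr8:123983123-123983372, minus strand: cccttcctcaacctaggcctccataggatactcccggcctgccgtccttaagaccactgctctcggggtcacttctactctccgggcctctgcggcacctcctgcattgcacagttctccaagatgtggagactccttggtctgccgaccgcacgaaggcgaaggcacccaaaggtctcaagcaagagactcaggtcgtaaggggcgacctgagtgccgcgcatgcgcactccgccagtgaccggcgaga
In the Tfr2 window, TGATAA lay 61 to 56 bases before the start and a CCNCNCCC match lay 115 to 108 bases before it, with no overlap between them. The Fth1 window held a pair of overlapping CCNCNCCC matches, at 79 to 72 and 73 to 66 bases before the start, and the Abcb10 window held neither motif. Over the 14 windows of the 7 genes, 2 held a GATA motif and 11 held CCNCNCCC. Of all 32851 windows of 250 bases in the table, 26.5% held a GATA motif and 45.9% held CCNCNCCC. A match is a description of the letters only.

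Tfrc encodes the transferrin receptor (gene 22042, chromosome 16, 32608896 to 32632794 on GRCm38.p6), the main entry point of iron into erythroid cells. Its brightest probe set, 1452661_at, measured 9.53, 10.33, 10.00 and 10.14 in sh14 cells at 1, 6, 12 and 22 h. The same probe set measured 9.67, 9.68, 10.02 and 10.60 in sh133 cells and 9.53, 10.09, 10.24 and 10.85 in scr cells. The 22 h array was the highest in sh133 and scr cells and the 6 h array was the highest in sh14 cells, and the 3 lines overlapped. Tfrc rose by 0.95 ± 0.16 (SE) from 1 h to 22 h, a fold of 1.94, with a limma adjusted p of 0.00327. At 6 h (0.60 ± 0.18) and 12 h (0.65 ± 0.18) it did not pass, with limma adjusted p-values of 0.103 and 0.0621.

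All 6 Tfrc probe sets were called higher at 22 h than at 1 h when each of the array's probe sets was tested on its own, with differences between 0.67 and 1.16. Among these are the manufacturer's control probe sets for the 3′ end, the middle and the 5′ end of the transcript. The middle one and the 5′ one each lay above the highest array median on 4 of the 12 arrays, so both were near background on the others. The increase at 22 h over 1 h was 0.61 in sh14 cells, 0.93 in sh133 cells and 1.33 in scr cells on the brightest probe set. It took the same order on each of the other 5 probe sets. The test of a different time course in the hairpin lines did not pass for Tfrc (-0.099 ± 0.069 per doubling of the hours, limma adjusted p = 0.524).

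Tfr2 (gene 50765, chromosome 5, 137569822 to 137588081) encodes the second transferrin receptor, which in erythroid cells is known to associate with the erythropoietin receptor. Probe set 1459994_x_at measured 7.82, 7.72, 7.91 and 7.67 in sh14 cells, 7.90, 7.76, 7.77 and 7.64 in sh133 cells, and 8.19, 8.30, 8.32 and 8.21 in scr cells. Every array of both hairpin lines lay below every scr array, and the hairpin lines overlapped each other. Tfr2 was the only one of the 10 genes with such a gap, against 1.68% of all tested genes with a gap in that direction and 3.8% with a gap in either. These are array values with no run term, and no sh14 array shares a run with an scr array. The means were 7.78 ± 0.11 in sh14 cells, 7.76 ± 0.11 in sh133 cells and 8.26 ± 0.065 in scr cells (SD, n = 4 each).

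For sh133 minus scr the difference of Tfr2 was -0.44 ± 0.11 (73.6% of the scr signal), called with a limma adjusted p of 0.0427. It was the only one of the 10 genes called in that comparison, where 4.91% of all tested genes were called. The pair of arrays that sh133 and scr have in run 2 gave -0.29 at 1 h and -0.58 at 22 h. For sh14 minus scr the difference was -0.38 ± 0.16, with an adjusted p of 0.264, and for the mean of the hairpin lines minus scr it was -0.41 ± 0.12, with an adjusted p of 0.147, both by limma. The sh133 call was kept in 3 of the 12 fits that each left out 1 array, over which the difference ran from -0.54 to -0.34. It was also lost when each probe set was tested on its own (limma adjusted p = 0.0583).

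The dimmer Tfr2 probe set, 1425381_a_at, gave 6.97, 7.14, 7.16 and 6.95 in sh14 cells, 7.56, 7.10, 7.05 and 7.16 in sh133 cells, and 7.71, 7.67, 7.64 and 7.50 in scr cells. All sh14 arrays again lay below all scr arrays, and the sh133 array of 1 h lay inside the scr range. Its differences from scr were -0.17 in sh14 cells and -0.21 in sh133 cells, with limma adjusted p-values of 0.726 and 0.418. Tfr2 was not called at 6, 12 or 22 h relative to 1 h or from 12 h to 22 h, and its difference at 22 h from 1 h was -0.13 ± 0.092 (limma adjusted p = 0.385).

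Steap3 (gene 68428, chromosome 1, 120226414 to 120271081) encodes the ferrireductase that reduces iron in the endosome. Probe set 1423468_at measured 3.31, 3.33, 3.33 and 3.33 in sh14 cells, 3.37, 3.30, 3.33 and 3.45 in sh133 cells, and 3.01, 3.42, 3.63 and 3.53 in scr cells. The scr array of 1 h was the lowest of the 12 and the scr array of 12 h the highest, so the hairpin lines lay inside the scr range. No comparison called Steap3. Its difference in time course between the hairpin lines and scr was -0.12 ± 0.038 per doubling of the hours, with an unadjusted p of 0.0116 and an adjusted p of 0.190 by limma. The other 2 Steap3 probe sets lay below the filter level of 1.45 and were not tested by gene.

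Slc11a2 (gene 18174, chromosome 15, 100387898 to 100424209) encodes DMT1, the proton-coupled carrier that moves reduced iron out of the endosome. Its brightest probe set, 1417584_at, measured 4.90, 5.32, 5.38 and 5.32 in sh14 cells, 4.80, 4.90, 4.79 and 5.17 in sh133 cells, and 5.11, 5.34, 5.26 and 5.36 in scr cells. The sh133 line was the lowest at each of the 4 times. Slc11a2 rose by 0.35 ± 0.093 from 1 h to 22 h (1.27-fold, limma adjusted p = 0.0269), a call kept in 7 of the 12 fits that each left out 1 array. It was higher in sh14 cells than in sh133 cells by 0.46 ± 0.11 (1.37-fold, limma adjusted p = 0.0169). The pairs of these lines within run 1 gave 0.42 at 6 h and 0.59 at 12 h.

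The 4 probe sets of Slc11a2 did not give one picture. At 22 h relative to 1 h all 4 were higher (0.20 to 0.95), and 2 were called when each was tested on its own. In sh14 cells the 22 h array lay below that of 1 h on 1452078_a_at (-0.048) and 1426441_at (-0.17). It lay above on 1417584_at (0.42) and 1441709_at (0.56), and in sh133 and scr cells it lay above on each probe set. For sh14 minus sh133, 1452078_a_at gave 0.10, 1426441_at gave -0.38 and 1441709_at gave -0.30, with limma adjusted p-values of 0.646, 0.419 and 0.478. On 1426441_at the signal was 2.87, 3.22, 2.77 and 2.70 in sh14 cells, 3.02, 3.05, 3.63 and 3.44 in sh133 cells, and 3.13, 3.65, 3.88 and 4.23 in scr cells. There sh14 was the lowest line at 1, 12 and 22 h. The mean over the 4 probe sets turned the sign of sh14 minus sh133, to -0.027. With the brightest probe set the mean of the hairpin lines minus scr was 0.017 ± 0.13, while 1426441_at and 1441709_at each gave -0.61, none of them called.

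Slc25a37 (gene 67712, chromosome 14, 69241848 to 69285544) moved most of the 10 genes over time and between lines. Its single probe set, 1417750_a_at, measured 5.69, 6.72, 7.14 and 8.46 in sh14 cells, 5.92, 7.57, 7.71 and 8.72 in sh133 cells, and 6.60, 7.72, 8.17 and 8.90 in scr cells. At each of the 4 times the order was the same, with sh14 lowest, sh133 between and scr highest. Every step of every line was upward, and the lines overlapped because the change over time was larger than the gap between them.

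Relative to 1 h, Slc25a37 rose 2.24-fold at 6 h, 2.84-fold at 12 h and 6.17-fold at 22 h. The last is 2.62 ± 0.13 on the log2 scale, with a limma adjusted p of 8.73e-06, and only 1 of the 12673 genes had a larger difference. The adjusted p was 0.00323 at 6 h and 0.00081 at 12 h by limma. In single lines the difference at 22 h from 1 h was 2.77 in sh14 cells, 2.80 in sh133 cells and 2.30 in scr cells. The test of a different time course in the hairpin lines did not pass (0.072 ± 0.056 per doubling of the hours, limma adjusted p = 0.573).

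Between lines, Slc25a37 was lower in sh14 cells than in scr cells, at a fitted 45.0% of the scr signal (-1.15 ± 0.23, limma adjusted p = 0.0259). The gaps between sh14 and scr arrays of the same time ran from -1.03 to -0.44, so each was smaller than the fitted difference. None of these pairs lies within a run. The fitted difference includes the run term estimated through sh133, which was -0.303 ± 0.197 for run 2 minus run 1 (limma adjusted p = 0.915). Slc25a37 was the only one of the 10 genes called for sh14 minus scr, where 3.06% of all tested genes were called. For the mean of the hairpin lines minus scr, Slc25a37 was again the only one called, beside 2.18% of all tested genes. That difference includes the same run term (-0.84 ± 0.18, a fitted 56.0% of the scr signal, limma adjusted p = 0.0420). The sh133 line did not pass against scr (-0.52 ± 0.15, limma adjusted p = 0.0847), and its pairs with scr within run 2 were -0.69 at 1 h and -0.18 at 22 h. The test of sh14 minus sh133 passed (-0.63 ± 0.15, limma adjusted p = 0.0200), with -0.85 at 6 h and -0.58 at 12 h within run 1.

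These calls were close to the threshold. Over the fits without 1 array, the difference of the hairpin lines' mean from scr ran from -1.07 to -0.70 and was called in 3 of 12. That of sh14 ran from -1.42 to -1.01 and was called in 5 of 12. When each probe set was tested on its own, the hairpin lines' mean against scr gave an adjusted p of 0.0595.

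Abcb10 (gene 56199, chromosome 8, 123952459 to 123983122) measured 6.15, 6.88, 7.27 and 7.67 in sh14 cells on probe set 1416402_at. The values were 6.70, 7.33, 7.59 and 7.95 in sh133 cells and 6.80, 7.14, 7.60 and 8.09 in scr cells. Each line climbed at every step, and sh14 was the lowest line at each time. Abcb10 rose by 0.54 ± 0.11 at 6 h, 0.91 ± 0.11 at 12 h and 1.35 ± 0.10 at 22 h relative to 1 h, with limma adjusted p-values of 0.0290, 0.00207 and 3.22e-05. At 22 h the fold was 2.55. The 6 h call was kept in 5 of the 12 fits without 1 array, and the later 2 in all of them.

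Abcb10 was lower in sh14 cells than in sh133 cells (-0.44 ± 0.12, 73.6% of the sh133 signal, limma adjusted p = 0.0313), with -0.44 at 6 h and -0.32 at 12 h within run 1. Against scr the difference was -0.50 ± 0.18 for sh14 and -0.053 ± 0.12 for sh133, with limma adjusted p-values of 0.181 and 0.877. Probe set 1416403_at gave 1.42 at 22 h relative to 1 h and was called. The third probe set, 1454265_a_at, gave 0.066, was not called, and lay below the highest array median on all 12 arrays. For sh14 minus sh133, 1416403_at gave -0.31 and 1454265_a_at -0.035, with limma adjusted p-values of 0.203 and 0.900. The mean over the probe sets of Abcb10 gave -0.26 in that comparison and was not called (limma adjusted p = 0.0987).

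Slc25a38 (gene 208638, chromosome 9, 120110377 to 120126093) has 1 probe set, 1424418_at. It measured 6.08, 6.64, 6.55 and 6.94 in sh14 cells, 6.00, 6.06, 6.11 and 6.36 in sh133 cells, and 6.06, 6.47, 6.69 and 6.94 in scr cells. The lines began close together at 1 h, and from 6 h every sh133 array lay below the sh14 and scr arrays of its time. Slc25a38 rose by 0.71 ± 0.12 from 1 h to 22 h (1.63-fold, limma adjusted p = 0.00273). It was higher in sh14 cells than in sh133 cells by 0.51 ± 0.13 (1.42-fold, limma adjusted p = 0.0314), with 0.58 at 6 h and 0.44 at 12 h within run 1. Neither hairpin line passed against scr, with 0.19 ± 0.20 for sh14 and -0.32 ± 0.13 for sh133, and limma adjusted p-values of 0.718 and 0.254.

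Fth1 encodes the ferritin heavy chain (gene 14319, chromosome 19, 9980600 to 9985111), the ferritin subunit that oxidises iron for storage. Probe set 1427021_s_at measured 11.40, 11.72, 11.86 and 11.86 in sh14 cells, 11.48, 11.72, 11.89 and 12.06 in sh133 cells, and 12.05, 12.17, 12.23 and 12.16 in scr cells. All sh14 arrays lay below all scr arrays, and the sh133 array of 22 h alone reached the scr range. Probe set 1448771_a_at gave 11.01, 11.26, 11.45 and 11.44 in sh14 cells, 10.85, 11.38, 11.46 and 11.54 in sh133 cells, and 11.54, 11.77, 11.86 and 11.71 in scr cells. There too the scr arrays were the highest at each time.

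Fth1 rose by 0.38 ± 0.10 from 1 h to 22 h (1.30-fold, limma adjusted p = 0.0278). The increase was 0.46 in sh14 cells, 0.57 in sh133 cells and 0.12 in scr cells. The call at 22 h was kept in 6 of the 12 fits that each left out 1 array, over which the difference ran from 0.29 to 0.49. Its differences from scr were -0.35 ± 0.18 for sh14 and -0.32 ± 0.12 for sh133, with limma adjusted p-values of 0.360 and 0.180, so neither was called. The pairs of sh133 and scr in run 2 were -0.57 at 1 h and -0.11 at 22 h. The interval of the hairpin lines' mean minus scr ran from -0.64 to -0.027 before adjustment (95%), with a limma adjusted p of 0.296.

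Slc40a1 encodes ferroportin, the only known iron exporter of mammalian cells (gene 53945, chromosome 1, 45908070 to 45926532). Probe set 1417061_at measured 6.46, 6.69, 6.92 and 6.26 in sh14 cells, 6.58, 7.03, 7.20 and 6.83 in sh133 cells, and 6.55, 6.99, 7.18 and 6.97 in scr cells. The 12 h array was the highest in every line, and sh14 was the lowest line at each time. Slc40a1 rose by 0.56 ± 0.13 from 1 h to 12 h (1.48-fold, limma adjusted p = 0.0303). At 22 h it was 0.16 ± 0.12 above 1 h, which did not pass (limma adjusted p = 0.405). The 12 h call was kept in 3 of the 12 fits that each left out 1 array, over which the difference ran from 0.47 to 0.70. No comparison of lines called the gene.

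The dimmer Slc40a1 probe set, 1448566_at, gave 4.76, 4.83, 5.16 and 4.45 in sh14 cells, 4.64, 5.07, 5.16 and 4.93 in sh133 cells, and 4.68, 5.00, 5.13 and 5.24 in scr cells. Its 12 h array was the highest in both hairpin lines, but in scr cells the 22 h array was. Its difference at 12 h from 1 h was 0.43 and was not called (limma adjusted p = 0.184).

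Flvcr1 encodes a plasma membrane exporter of heme (gene 226844, chromosome 1, 191005832 to 191026190). Probe set 1434424_at measured 6.20, 6.68, 6.70 and 5.76 in sh14 cells, 6.51, 6.89, 6.91 and 6.19 in sh133 cells, and 6.13, 7.17, 7.16 and 6.46 in scr cells. In both hairpin lines the 22 h array was the lowest of the line, and in scr cells the 1 h array was. Flvcr1 rose by 0.71 ± 0.15 at 6 h and 0.72 ± 0.15 at 12 h relative to 1 h, with limma adjusted p-values of 0.0297 and 0.0210. From 12 h to 22 h it fell by 0.87 ± 0.15 (54.9% of the 12 h signal, limma adjusted p = 0.0324), in a comparison added after the values were seen. Of the 12 fits that each left out 1 array, 5 kept the 6 h call, 7 the 12 h call and 3 the fall from 12 h to 22 h, which ran from -1.05 to -0.77.

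The dimmer Flvcr1 probe set, 1425399_at, did not show this course. It gave -0.26 at 6 h and -0.22 at 12 h relative to 1 h, neither of them called, and 0.069 from 12 h to 22 h (limma adjusted p = 0.894). For a different time course in the hairpin lines, Flvcr1 gave -0.15 ± 0.038 per doubling of the hours, with an unadjusted p of 0.00289 and an adjusted p of 0.130 by limma. That unadjusted p was the lowest of the 10 genes. The run 2 pairs of sh133 and scr differed by 0.38 at 1 h and by -0.28 at 22 h.

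**Figure D2:**
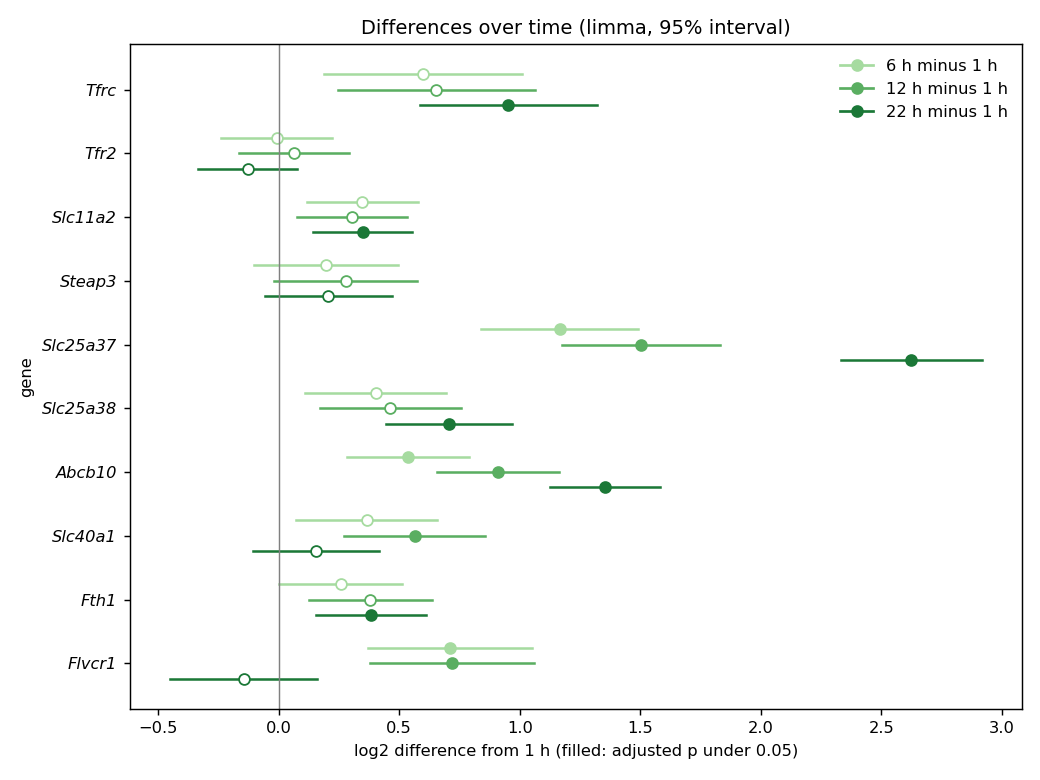
Log2 difference of 6, 12 and 22 h from 1 h (x axis) for each iron gene (y axis), as points with 95% intervals from limma over 12 arrays, filled where the adjusted p is under 0.05. Slc25a37 reaches 2.62 and Abcb10 1.35 at 22 h, while Slc40a1 and Flvcr1 are filled at 12 h and lie near 0 at 22 h.

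Read together, 3 of the 10 genes were called at 6 h relative to 1 h, all higher (Slc25a37, Abcb10 and Flvcr1), against 4.86% of all tested genes called and 2.93% called higher. At 12 h the count was 4 of 10, with Slc40a1 added, against 7.06% called and 4.32% higher. At 22 h it was 6 of 10 (Slc25a37, Abcb10, Tfrc, Slc25a38, Slc11a2 and Fth1), all higher, against 18.1% called and 8.74% higher. Because these genes and the other lists were chosen with earlier results known, such counts beside the shares are descriptions and no test. The median difference of the 10 genes was 0.38 at 6 h, 0.51 at 12 h and 0.37 at 22 h, beside medians of 0.028, 0.029 and 0.020 over all tested genes. From 12 h to 22 h, Slc25a37 was called higher (1.12 ± 0.15, limma adjusted p = 0.0183) and Flvcr1 lower, beside 1.25% of all tested genes.

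The shapes over time fell into more than one kind. The highest array of each line was that of 22 h for Slc25a37, Slc25a38 and Abcb10, as for 7.07% of all tested genes. For Slc40a1 and Flvcr1 it was that of 6 or 12 h in every line, as for 14.6% of all tested genes, though not on their dimmer probe sets. Erythroid markers moved over the same times, with 5 of 6 tested called higher at 22 h than at 1 h, against 8.74% of all tested genes. Among them the transcription factor gene Klf1 was 1.25 ± 0.10 higher and Gata1 0.74 ± 0.10 higher. Among mast cell and basophil markers, 3 of 6 tested were called lower and 1 higher, against 18.1% of all tested genes called in either direction, and the histidine decarboxylase gene Hdc fell most (-3.29 ± 0.20). The part of either marker list in the iron gene values was not tested.

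**Figure D3:**
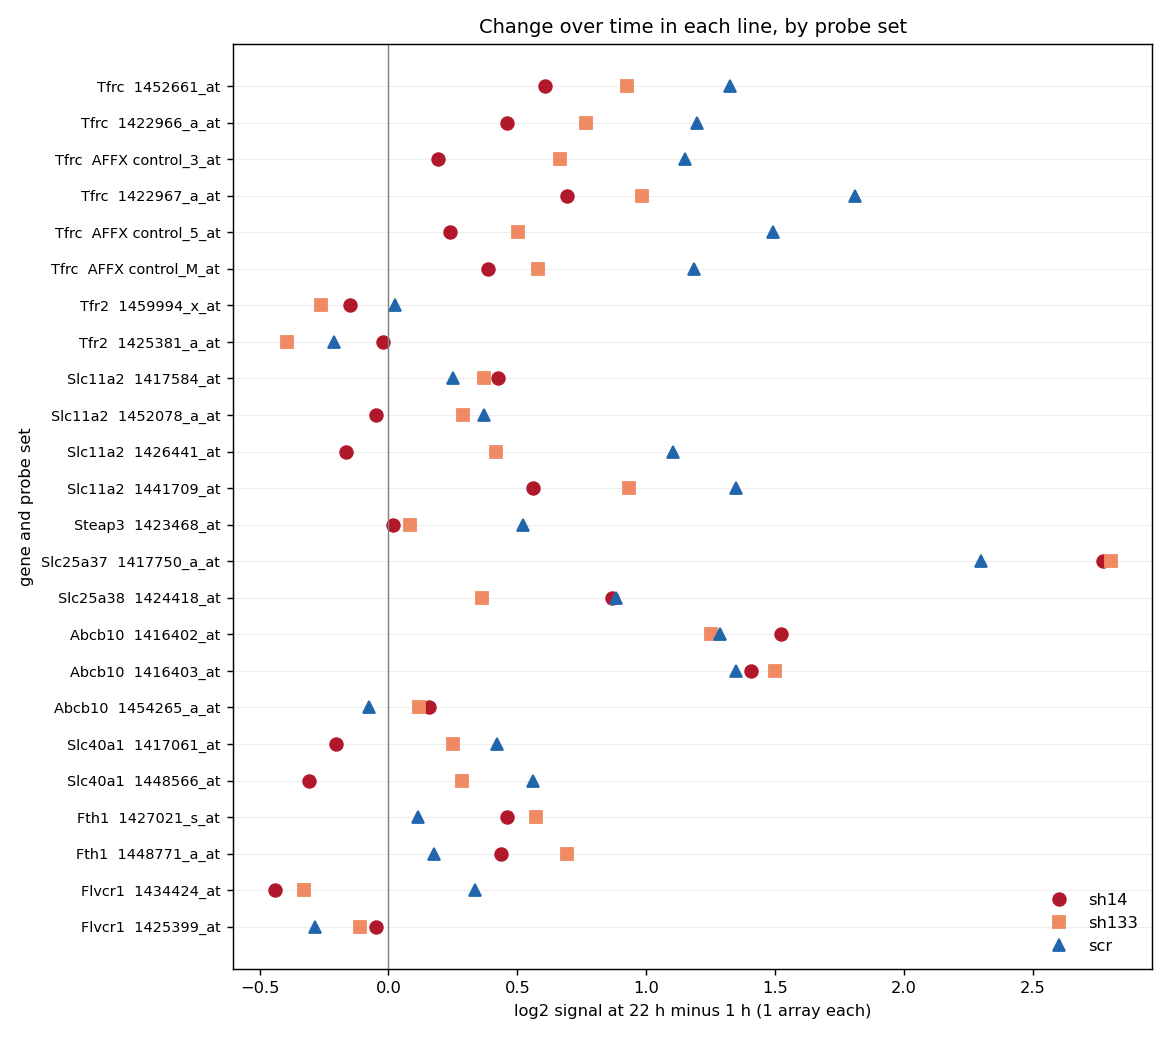
Log2 signal at 22 h minus that at 1 h (x axis) in each line for the 24 probe sets of the iron genes that passed the filter (y axis), with 1 pair of arrays per point and so no error bars. All 6 Tfrc probe sets lie above 0 in each line with scr farthest to the right, and the single Slc25a37 probe set lies between 2.30 and 2.80.

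The sh14 line was below scr at all 4 times for 5 of the 10 genes (Tfr2, Slc25a37, Abcb10, Slc40a1 and Fth1), against 18.2% of all tested genes. The sh133 line was below scr at all 4 times for 5 genes (Tfr2, Slc11a2, Slc25a37, Slc25a38 and Fth1), against 15.3%. Both lines were below scr at all times for Tfr2, Slc25a37 and Fth1, against 5.86%. These comparisons share the scr arrays and are of array values, with no run term. No sh14 array shares a run with an scr array, and sh133 and scr share one at 1 and 22 h alone. Line and run therefore cannot be fully told apart in these counts. No gene of the 10 lay above scr at all 4 times in sh14 cells, as 20% of all tested genes did, or in sh133 cells, as 18.3% did.

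Between sh14 and sh133, 4 of the 10 genes were called, against 14.6% of all tested genes. Slc11a2 and Slc25a38 were higher in sh14 cells, and they were above sh133 at all 4 times, as were 20% of all tested genes. Slc25a37 and Abcb10 were lower. With Slc40a1 and Flvcr1 they were below sh133 at all 4 times, as were 21.7% of all tested genes. These orders are of the brightest probe sets. At 1 h Slc11a2 on 1452078_a_at was 4.78 in sh14 cells and 4.98 in sh133 cells. Slc40a1 on 1448566_at was 4.76 and 4.64. All 4 calls were lost in each fit that left out one of the 4 arrays of 6 and 12 h from these lines, the only ones in which sh14 and sh133 share a run. Without the scr array of 12 h, 2 of the 4 calls were left. No gene of the 10 had a called difference in time course between the hairpin lines and scr, against 0.0316% of all tested genes. At an unadjusted p under 0.05 there were 3 (Flvcr1, Steap3 and Fth1), against 16.2%.

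**Figure D4:**
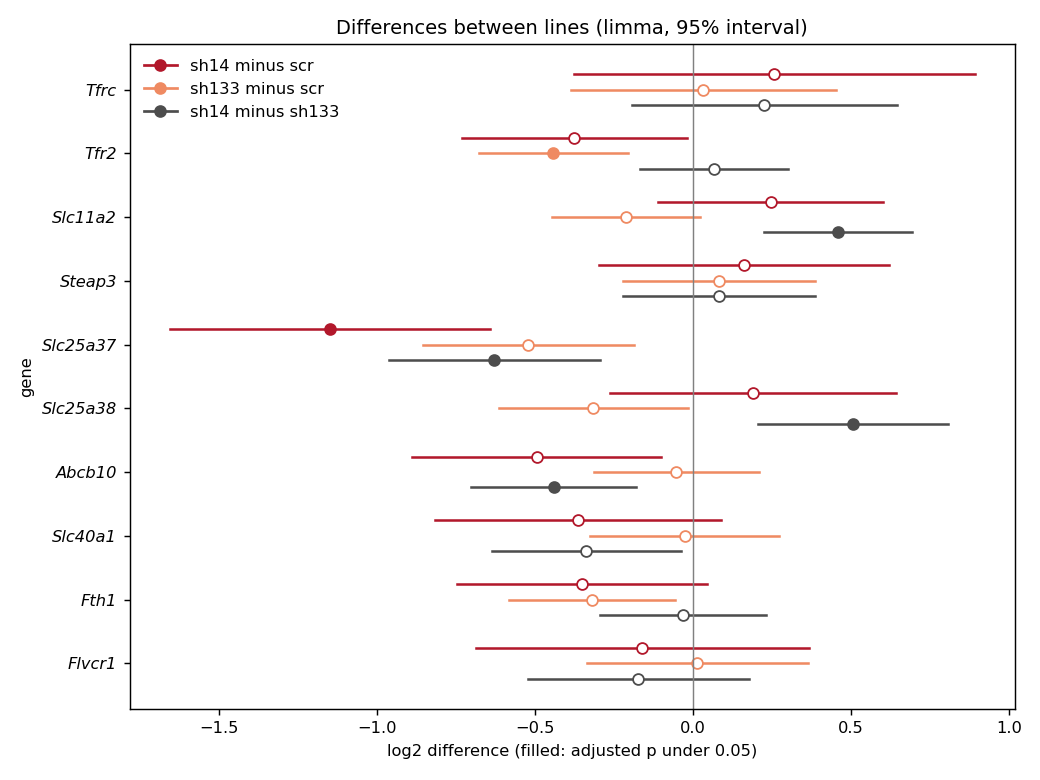
Log2 difference between lines (x axis) for each iron gene (y axis): sh14 minus scr, sh133 minus scr and sh14 minus sh133, as points with 95% intervals from limma over 12 arrays, filled where the adjusted p is under 0.05. Slc25a37 is filled for sh14 minus scr at -1.15, Tfr2 for sh133 minus scr at -0.44, and Slc11a2, Slc25a37, Slc25a38 and Abcb10 for sh14 minus sh133.

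The array run bore on how many genes were called. Without a run term the counts of the 10 genes were 6 for sh14 minus scr, 4 for sh133 minus scr and 5 for sh14 minus sh133. The same change raised the share of all tested genes called to 23.7%, 12.6% and 24.7%. In that fit Tfr2 was called in both hairpin lines (-0.47 in sh14 and -0.49 in sh133), as was Fth1 (-0.44 in sh14 and -0.37 in sh133).

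Of the erythroid markers tested, all 6 were lower by value in sh14 cells than in scr cells. Among these 1 was called, Alas2, against 3.06% of all tested genes. In sh133 cells 2 were higher and 4 lower, with 0 called, against 4.91%. Markers of other cell types also differed between lines. Mast cell and basophil markers averaged 2.60 to 3.12 in sh14 cells, 1.83 to 2.44 in sh133 cells and 2.05 to 2.63 in scr cells, and 6 of the 8 rose above the highest array median on any array. Of the 6 mast cell and basophil markers tested, 2 were called higher in sh14 cells than in scr cells, against 3.06% of all tested genes called. They were the IgE receptor genes Fcer1a (3.08 ± 0.34, limma adjusted p = 0.00192) and Ms4a2 (1.36 ± 0.24, limma adjusted p = 0.0162). By value 4 of the 6 were higher and 2 lower. In sh133 cells 2 of the 6 were higher than in scr cells and 4 lower by value. Among them 1 was called, against 4.91% of all tested genes. This was the mast cell chymase gene Cma1, which was lower (-0.63 ± 0.13, limma adjusted p = 0.0231). The Cma1 signal was near background, at 1.28 to 1.56 in sh133 cells and 1.73 to 2.36 in scr cells, beside a highest array median of 1.92. Megakaryocyte markers averaged 3.52 to 3.82 in sh14 cells, 3.25 to 4.00 in sh133 cells and 2.88 to 3.11 in scr cells, and 4 of the 5 measured rose above that level on any array. Of 4 megakaryocyte markers tested, 1 was called higher than in scr cells in each hairpin line and none lower. The shares of all tested genes called were 3.06% for sh14 and 4.91% for sh133. By value 3 of the 4 were higher and 1 lower in sh14 cells, and all 4 were higher in sh133 cells. The marker called was the integrin gene Itga2b in sh14 cells (1.85 ± 0.36, limma adjusted p = 0.0243). In sh133 cells it was the platelet factor 4 gene Pf4 (2.21 ± 0.50, limma adjusted p = 0.0330). For both macrophage and granulocyte markers, 2 genes rose above that level on any array, of 8 and 6 measured. The part of these markers in the Slc25a37 and Tfr2 differences was not tested.

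For other steps of iron handling 56 genes were listed and 42 tested. Against scr, 0 were called higher and 1 lower in the mean of the hairpin lines, where 2.18% of all tested genes were called. In sh14 cells 0 were higher and 2 lower, beside 3.06%, and in sh133 cells 0 were higher and 2 lower, beside 4.91%. These counts are near the shares over all tested genes and are no result about the list. Bmp2, a ligand of the pathway that sets hepcidin in liver, was lower in all 3 comparisons (-1.91 ± 0.34 in sh14 and -1.15 ± 0.23 in sh133, limma adjusted p-values 0.0172 and 0.0185). The second gene lower in sh14 cells was Tmem14c, a mitochondrial membrane protein needed for a late step of heme synthesis. It measured 7.94, 8.30, 8.60 and 8.90 in sh14 cells, 9.02, 9.60, 9.77 and 10.03 in sh133 cells, and 8.65, 9.16, 9.46 and 9.75 in scr cells. Like Slc25a37 it was lowest in sh14 cells at each time, and it was lower there than in scr cells (-0.91 ± 0.15, limma adjusted p = 0.0112). In sh133 cells the second was Isca2, an iron-sulfur cluster assembly gene (-0.58 ± 0.11, limma adjusted p = 0.0178).

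Over time, 4 of these 42 genes were called higher and 1 lower at 6 h, against 4.86% of all tested genes called in either direction. At 12 h, 7 were higher and 1 lower, against 7.06%, and at 22 h 10 were higher and 2 lower, against 18.1%. The counts by list that follow stand beside the same 18.1%, of which 8.74% were higher. In the mitochondrial and iron-sulfur list, 5 of 12 were higher at 22 h. They included Abcb6, a porphyrin transporter (1.08 ± 0.15), Tmem14c (1.02 ± 0.086), the glutaredoxin gene Glrx5 (0.60 ± 0.094) and the cluster scaffold gene Iscu (0.44 ± 0.093). In the uptake list, 1 of 10 was higher, the metal carrier gene Slc39a8 (0.65 ± 0.11). Of 8 storage and regulatory genes 2 were higher, the ferritin autophagy receptor gene Ncoa4 (0.60 ± 0.16) and the stress response factor gene Nfe2l2 (0.45 ± 0.14). Of 7 export and heme trafficking genes 2 were higher, the biliverdin reductase gene Blvrb (1.05 ± 0.10) and the heme and porphyrin exporter gene Abcg2 (1.00 ± 0.11). In the systemic list, 2 of 5 were lower, Bmp2 (-1.15 ± 0.20) and Id1 (-0.86 ± 0.11), a target of BMP signalling.

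Heme synthesis enzymes build the porphyrin ring, into which the last of them, ferrochelatase, inserts iron. Of 8 tested, 7 were called higher at 22 h than at 1 h, against 8.74% of all tested genes, with a median difference of 1.15 beside 0.020 over all tested genes. Alas2, which starts heme synthesis in erythroid cells, measured 3.39, 3.90, 4.31 and 5.84 in sh14 cells, 5.20, 6.58, 6.62 and 7.47 in sh133 cells, and 5.02, 4.96, 5.40 and 6.34 in scr cells. It was lower in sh14 cells than in scr cells (-1.83 ± 0.32, limma adjusted p = 0.0144) and than in sh133 cells (-2.49 ± 0.21). The means of the Alas2 arrays were 4.36 in sh14 cells, 6.47 in sh133 cells and 5.43 in scr cells. Both gaps between these means are smaller than the fitted differences, which include the run term. Unlike Slc25a37, its sh133 signal lay above that of scr at each time.

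For the 5 genes called in any comparison of lines, the tested genes with the closest course over the 12 arrays were found by the root mean square distance between profiles, each centred on its own mean. For Slc25a37 they were Mcpt2 (0.27), a mast cell protease gene, Rhd (0.31), a Rh blood group gene, and Epb42 (0.31), which encodes protein 4.2 of the red cell membrane. For Abcb10 they were Gypc (0.11), which encodes glycophorin C, Ptdss2 (0.16) and the calcium pump gene Atp2b4 (0.17). Icam4 (0.13), a red cell surface gene, Urod (0.15), a heme synthesis enzyme gene, and 4930523C07Rik (0.15) were closest to Slc25a38. Those closest to Tfr2 were Yeats4 (0.084), Pgam5 (0.096) and Snrpf (0.0995), and to Slc11a2 they were Telo2 (0.10), Mrm1 (0.11) and Apip (0.11). The genes' own spread about their means by the same measure was 1.01 for Slc25a37, 0.54 for Abcb10, 0.33 for Slc25a38, 0.24 for Tfr2 and 0.22 for Slc11a2.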

How the data were processed

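Affymetrix Mouse430_2 arrays were hybridised with amplified, biotin-labelled RNA of I/11 cells, per the labels' protocols. The deposited table holds log2 probe set signals from RMA, whose use comes from the submitters' processing notes and whose version is not given in the sources used here. This method equalises the arrays' distributions, so a change in total RNA per cell cannot be read from them. Of 45101 probe sets, 34958 named 1 gene, 932 several and 9211 none in the platform annotation, and 34754 were matched to RefSeq genes.

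The brightest probe set stood for each of 18195 genes, and the 12673 at or above the 40th percentile of probe set means were tested. limma 3.58.1 in R 4.3.3 fitted line, time and array run, and for differences in time course also hairpin by log2 hours. P-values were adjusted over all genes tested, with a threshold of 0.05. Precision is limited by the number of arrays. The fits were tested on simulated data.

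All 10 iron genes are named, from other lists up to 4 called genes of largest change per comparison, and for each iron gene called between lines its 3 closest profiles. The 10 genes and the lists were chosen with earlier results of these data known. Alternatives were no run term, other filters, the mean over probe sets, every probe set, array centring, a trended prior, single runs and each array left out. Figures and promoter windows were made with Python 3.11.15.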

Additional observations from a re-analysis of the deposited data

Results flagged for a closer look

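Among the 10 iron genes, 4 differed between the hairpin lines in the sh14 minus sh133 term of limma, against 14.6% of all tested genes. Their fitted differences from scr were thus unlike in the 2 lines. Slc11a2, on its brightest probe set, was 0.46 and Slc25a38 0.51 higher in sh14 cells than in sh133 cells. The other Slc11a2 probe sets gave 0.10, -0.38 and -0.30, none of them called, and the mean over its probe sets gave -0.027. Slc25a37 differed by -0.63 and Abcb10 by -0.44 in the same direction of subtraction. All 4 calls were lost in each fit that left out 1 of the 6 or 12 h arrays of these lines. In an array gap test on 30 groups of 4 arrays (10 genes in 3 lines), 2 groups had an array whose gap was large relative to the group's own range. Chance gives about 1 in 20. The Slc11a2 signal of the sh14 array of 1 h was 4.90, against 5.32 to 5.38 in the other sh14 arrays. The Steap3 signal of that array was 3.31, with the other 3 sh14 arrays all at 3.33. That gap is small in size and was flagged because the other 3 nearly coincide. The arrays of a line differ in time, so such a gap can also be a time difference.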

How the results depend on the processing

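With no run term, the calls among the 10 genes were 3 for the hairpin lines' mean, 6 for sh14 and 4 for sh133, each against scr, where the run term left 1 each. The shares of all tested genes called were 16.2%, 23.7% and 12.6% without the run term, and 2.18%, 3.06% and 4.91% with it. The mean over probe sets, with 11912 genes tested, gave 0 for sh133 minus scr (563 of all genes called). It gave 2 for sh14 minus sh133 in place of 4 (1685 of all), the calls lost being Slc11a2 and Abcb10. The same setting gave 1 at 6 h in place of 3 (516 of all) and 1 from 12 to 22 h in place of 2 (185 of all). Testing every probe set gave 0 for the hairpin lines' mean and 0 for sh133 against scr, beside 263 and 810 of all 22549 probe sets. A trended prior gave 7 at 12 h in place of 4, beside 968 of all 12673 genes. Run 2 alone gave 0 for sh133 minus scr, beside 254 of 12673. The causes were not tested. Leaving out each array in turn, calls ranged from 0 to 1 for the hairpin lines' mean, for sh14 and for sh133 against scr, 0 to 4 for sh14 minus sh133, 1 to 4 at 6 h, 2 to 5 at 12 h, 4 to 6 at 22 h and 0 to 2 from 12 to 22 h. Shares over all tested genes are not given for these fits. Slc25a37 at 6, 12 and 22 h, Abcb10 at 12 and 22 h, and Tfrc and Slc25a38 at 22 h were called in all 12 of them. No paired analysis was possible because the labels give no replicate numbers and arrays of the same hour are already matched by the time term.

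One called difference turned its sign, Slc11a2 for sh14 minus sh133, at -0.027 with the mean over probe sets. All other changes of sign concern differences that were not called. With no run term, the hairpin lines' mean minus scr became -0.18 for Tfrc, -0.20 for Slc11a2 and -0.053 for Steap3. That for sh14 became -0.18 for Tfrc, -0.037 for Slc11a2 and -0.071 for Steap3. That for sh133 became -0.18 for Tfrc, -0.035 for Steap3 and -0.11 for Flvcr1, and Steap3 became -0.036 for sh14 minus sh133 and 0.00629 from 12 to 22 h. With the mean over probe sets, Slc11a2 became -0.29 for the hairpin lines' mean, -0.31 for sh14 and -0.092 for the time course, Tfrc became -0.010 for sh14 minus sh133, and Tfr2 became 0.0094 at 6 h. From 12 to 22 h the same setting gave 0.084 for Steap3 and -0.0014 for Fth1. Centring the arrays gave -0.011 for Slc11a2 in the hairpin lines' mean, -0.013 for Flvcr1 in sh133 and -0.035 for Fth1 from 12 to 22 h. Run 2 alone gave -0.059 for Tfrc in sh133.

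Leaving out 1 array also turned signs of uncalled differences. For the hairpin lines' mean minus scr the ranges were Tfrc from -0.048 to 0.41, Slc11a2 from -0.048 to 0.11, Steap3 from -0.087 to 0.22, Slc25a38 from -0.32 to 0.19 and Flvcr1 from -0.34 to 0.12. In sh14 minus scr they were Tfrc from -0.051 to 0.56, Steap3 from -0.077 to 0.27, Slc25a38 from -0.067 to 0.45 and Flvcr1 from -0.47 to 0.057. For sh133 minus scr they ran, for Tfrc from -0.047 to 0.26, Steap3 from -0.097 to 0.17, Abcb10 from -0.13 to 0.024, Slc40a1 from -0.11 to 0.11 and Flvcr1 from -0.22 to 0.18. In sh14 minus sh133 they were Tfrc from -0.0060 to 0.44 and Fth1 from -0.068 to 0.0095. For 6 h they ran, for Tfr2 from -0.087 to 0.052 and Steap3 from -0.0026 to 0.34. In 12 h they were Tfr2 from -0.014 to 0.098. In the time course they were Tfrc from -0.36 to 0.011, Slc11a2 from -0.035 to 0.079, Slc25a37 from -0.043 to 0.23 and Abcb10 from -0.14 to 0.075. For 12 to 22 h they ran, for Slc11a2 from -0.012 to 0.13, Steap3 from -0.16 to 0.044 and Fth1 from -0.044 to 0.11.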
